A study of Mus musculus with 12 samples.

Results

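The 10 genes described here carry out the housekeeping work of astrocytes, the glial cells that surround synapses and vessels in the brain. They are Slc1a2 and Slc1a3 (glutamate transporters), Aqp4 (a water channel), Gja1 and Gjb6 (gap junction proteins), Glul, Aldh1l1, Aldoc and Etnppl (metabolic enzymes) and Agt (angiotensinogen). They were chosen by name as astrocyte genes of transport, coupling and metabolism, by a rule that uses no threshold on measured values. The choice was made with earlier results of these data known. Shares and medians of the 10 set beside those of all genes are therefore descriptive. All 10 were among the 16482 genes with a usable symbol, and all 10 passed the filter on low counts that left 12623 genes for testing.

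Astrocytes take up the glutamate that neurons release, through the transporters encoded by Slc1a2 and Slc1a3, and glutamine synthetase, the product of Glul, turns it into glutamine that neurons take back. Water and potassium pass through astrocyte endfeet at blood vessels, where the Aqp4 channel is concentrated, and spread through a network of cells joined by the connexins that Gja1 and Gjb6 encode. In brain injury astrocytes become reactive and make more Gfap, an intermediate filament, and the homeostatic genes can change with or without it.

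Whole-brain RNA of C57BL/6 mice was measured in 12 samples by MARS-seq in a bulk form, which tags and counts the 3′ ends of transcripts. The CBE+GZ-667161 group received conduritol B epoxide (CBE), which blocks the lysosomal enzyme glucocerebrosidase, together with GZ-667161, an inhibitor of glucosylceramide synthase. The CBE group received CBE without the inhibitor, and the PBS group received the saline vehicle only. Each group has 4 samples. The samples with GZ-667161 and those with PBS, numbered 2 to 5 in both groups, were taken at postnatal day 40. Of the CBE samples, replicates 4 and 6 were also taken at day 40, but replicates 2 and 3 at day 34. CBE produces a chemical rather than a genetic model of neuronopathic Gaucher disease. Doses and the day of the first injection do not stand in the labels. The labels do not say that each sample is a separate mouse, so each p-value is set against a spread between samples that may be partly technical.

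Total counts per library ran from 1753630 to 6499260, with the 2 day 34 CBE samples the lowest, and samples of 1 group differed beyond counting noise (chi-square per degree of freedom 3.53 to 13.3). Xist, the RNA that coats the inactive X chromosome, was at 1 CPM (edgeR's counts scaled to TMM library size) or more in PBS replicates 4 and 5 and in CBE+GZ-667161 replicates 2, 3 and 5, and in no CBE sample. Sex by this measure was thus unequal between the groups, and the age label was unequal too. Results are therefore also given within day 40 and within libraries split by Xist, as far as the samples allow. CBE cannot be compared among libraries with Xist of 1 CPM or more, and no other group has a day 34 sample. In bulk tissue a lower or higher level cannot be assigned to the number of cells or to the RNA of each cell: they cannot be told apart. Counts of 3′ tags are compared between samples, for 1 gene or for the sum over a list, and the levels of different genes are not set against each other.

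Regulatory windows of 4 genes are shown because they belong to the pair of sister glutamate transporters and to the 2 genes with the largest fold changes in CBE+GZ-667161 against CBE. Each runs from 250 bases before to 50 bases after a transcript start in RefSeq on GRCm38.p6, written 5′ to 3′ on the gene's strand. Capitals mark matches, on either strand, to 7 motifs: the TATA box TATAAA, the CCAAT box CCAAT, the STAT palindrome TTCNNNGAA, the AP-1 site TGACTCA, the SOX motif ACAAAG, the glucocorticoid response element (AGAACA, any 3 bases, TGTTCT) and the nuclear factor I palindrome (TTGGC, any 5 bases, GCCAA). The Slc1a3 window is chr15:8710758-8711057 on the minus strand, that of Slc1a2 is chr2:102706188-102706487 on the plus strand, that of Etnppl is chr3:130617198-130617497 on the plus strand and that of Agt is chr8:124569657-124569956 on the minus strand.
Slc1a3: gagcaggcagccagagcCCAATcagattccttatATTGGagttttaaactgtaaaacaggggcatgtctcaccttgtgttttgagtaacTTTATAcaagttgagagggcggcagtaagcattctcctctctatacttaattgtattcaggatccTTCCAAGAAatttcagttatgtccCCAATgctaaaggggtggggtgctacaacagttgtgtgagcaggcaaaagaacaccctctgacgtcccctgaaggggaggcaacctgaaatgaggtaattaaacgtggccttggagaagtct
Slc1a2: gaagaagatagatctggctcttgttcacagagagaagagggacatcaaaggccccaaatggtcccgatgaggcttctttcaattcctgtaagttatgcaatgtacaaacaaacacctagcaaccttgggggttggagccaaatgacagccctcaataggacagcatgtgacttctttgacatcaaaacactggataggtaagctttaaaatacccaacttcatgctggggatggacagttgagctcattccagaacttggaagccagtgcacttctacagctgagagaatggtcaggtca
Etnppl: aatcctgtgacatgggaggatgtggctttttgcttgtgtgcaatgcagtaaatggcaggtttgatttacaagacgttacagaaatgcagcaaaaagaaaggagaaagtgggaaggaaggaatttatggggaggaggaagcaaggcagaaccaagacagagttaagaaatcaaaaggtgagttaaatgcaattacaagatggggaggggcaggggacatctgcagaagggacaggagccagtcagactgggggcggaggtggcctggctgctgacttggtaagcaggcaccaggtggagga
Agt: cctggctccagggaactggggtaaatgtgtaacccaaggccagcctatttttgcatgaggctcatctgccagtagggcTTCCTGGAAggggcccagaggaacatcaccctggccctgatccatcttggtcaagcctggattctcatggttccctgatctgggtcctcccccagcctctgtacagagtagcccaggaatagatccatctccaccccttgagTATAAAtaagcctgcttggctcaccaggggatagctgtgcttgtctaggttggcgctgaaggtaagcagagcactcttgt

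The Slc1a3 window held 1 TATA box, 3 CCAAT boxes and 1 STAT palindrome, and the Agt window held 1 TATA box and 1 STAT palindrome. The Slc1a2 window lies at a RefSeq start inside the annotated span of the gene, not at its 5′ end, and Etnppl has another window, which is not shown. The windows shown for Slc1a2 and Etnppl held none of the 7 motifs. The E-box CANNTG was also searched and is not in capitals: it had 5 matches in the Slc1a2 window, 2 in that of Etnppl and 1 each in those of Slc1a3 and Agt, and 72.3% of all windows held it. Over all 32851 RefSeq windows of this length, 13.6% held the TATA box, 37.4% the CCAAT box and 8.30% the STAT palindrome. Among the 11 windows of the 9 genes looked up, 2 held the TATA box, 3 the CCAAT box, 3 the STAT palindrome and 10 the E-box. The AP-1 site was in 1, that of Gja1 (5.20% of all windows). None of the 11 held the SOX motif (18.7% of all), the glucocorticoid element (0.00913%) or the nuclear factor I palindrome (0.0365%). These matches describe the letters and show no bound factor.

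CBE was compared with PBS to ask how the homeostatic genes stood in brains with the blocked enzyme. Of the 10 genes, 5 were higher in CBE brains: Slc1a3, Aqp4, Gjb6, Aldh1l1 and Etnppl, by 0.58 to 2.52 on the log2 scale, and 0 were lower (edgeR's quasi-likelihood test, adjusted p under 0.05). Over all tested genes 6.95% were called higher and 4.04% lower. Slc1a2, Gja1, Glul, Aldoc and Agt did not pass. The median log2 fold change of the 10 was 0.61, against -0.01 over all tested genes, and 4 of the 10 had all CBE samples above all PBS samples, against 8.61% of all genes. In the authors' deposited table, which gives PBS over CBE, 3 of the 10 had an adjusted p under 0.05 (Slc1a3, Aqp4 and Aldh1l1), and Gjb6 and Etnppl had 0.053 and 0.054. Without PBS replicate 5 the count of 5 was 3.

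CBE+GZ-667161 was then compared with CBE to ask what the synthase inhibitor did to these levels. With GZ-667161, 5 of the 10 were lower than in CBE: Etnppl, Agt, Gjb6, Slc1a3 and Aldoc, and 0 were higher by the same test and threshold. Over all tested genes 0.832% were called lower and 0.444% higher. The levels in CBE+GZ-667161 brains were 0.10 times those of CBE brains for Etnppl, 0.301 times for Agt, 0.531 times for Gjb6, 0.697 times for Slc1a3 and 0.746 times for Aldoc. The median log2 fold change of the 10 was -0.39, against 0.01 over all tested genes, and 4 of the 10 had all CBE+GZ-667161 samples below all CBE samples, against 3.98% of all genes. The authors' deposited table, which gives CBE over CBE+GZ-667161, has the same 5 genes with an adjusted p under 0.05. The count fell to 0 when CBE replicate 4, CBE replicate 6 or CBE+GZ-667161 replicate 4 was left out. It fell to 1 with either of CBE+GZ-667161 replicates 2 and 3 left out, and to 3 without PBS replicate 2 or 4. With Xist level as a covariate all 5 calls were lost (adjusted p 0.050 to 0.18), and with the PBS samples left out of the fit Etnppl alone was called.

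None of the 10 was called between CBE+GZ-667161 and PBS by edgeR, and DESeq2 and limma-voom also called 0. Over all tested genes 3.45% were called there. At an unadjusted p under 0.05, 1 of the 10 passed, namely Aqp4, as did 1658 of all 12623 genes tested. The median log2 fold change was -0.11, and it was -0.00024 over all tested genes. Each of these comparisons shares samples with the others, so their fold changes are given side by side for each gene and are not independent.

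**Figure D1:**
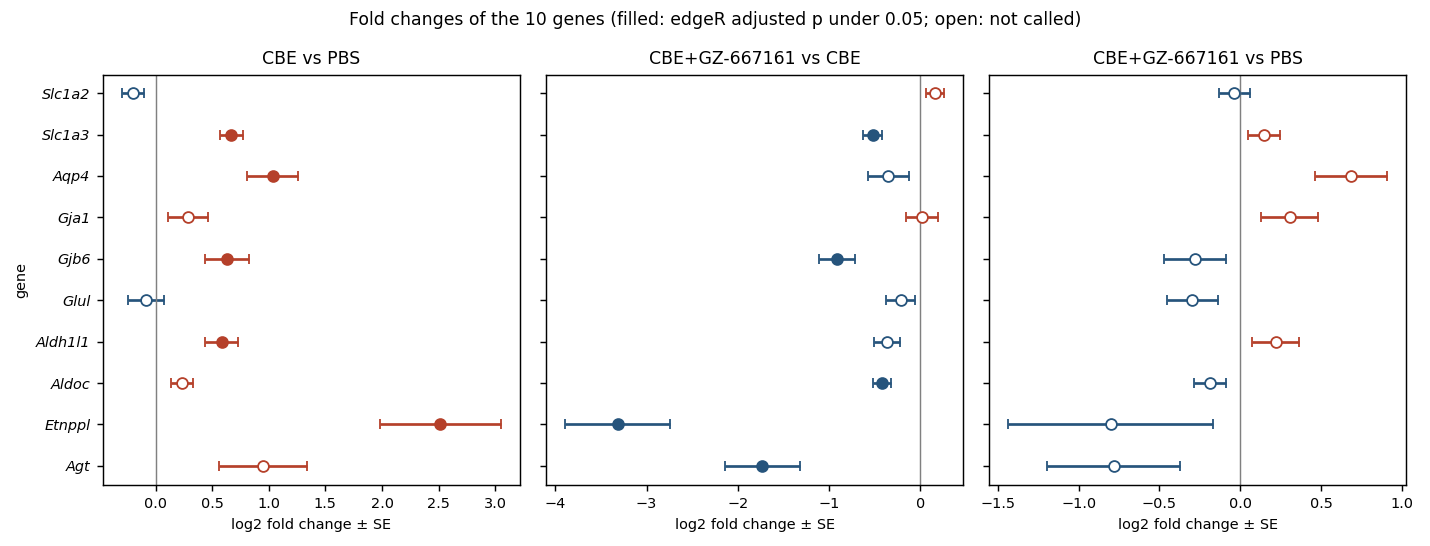
Log2 fold change with its standard error for each of the 10 genes (rows) in CBE against PBS (left), CBE+GZ-667161 against CBE (middle) and CBE+GZ-667161 against PBS (right), with positive values higher in the group named first; the horizontal scale differs between panels. Filled points passed an adjusted p under 0.05: 5 genes higher in the left panel, 5 lower in the middle panel and 0 in the right panel.

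Slc1a3 encodes GLAST, the glutamate transporter most abundant in Bergmann glia of the cerebellum and in radial glia (chromosome 15, 8634124 to 8710764, mm10). It stood at 293, 326, 328 and 383 CPM in CBE+GZ-667161 replicates 2 to 5, at 476 and 523 CPM in the day 40 CBE samples, at 451 and 456 CPM in the day 34 CBE samples, and at 297, 306, 302 and 296 CPM in PBS replicates 2 to 5. Every CBE sample lay above every sample of the other groups, and the PBS samples were close to each other. The means were 332 ± 37.1 CPM in CBE+GZ-667161, 476 ± 33.0 CPM in CBE and 299.9 ± 4.53 CPM in PBS (SD, n = 4 each). Slc1a3 rose in CBE against PBS by 0.67 ± 0.10 on the log2 scale (SE; edgeR adjusted p = 0.00026) and was lower in CBE+GZ-667161 than in CBE by a log2 fold change of -0.52 ± 0.10 (adjusted p = 0.024). Between CBE+GZ-667161 and PBS the log2 difference was 0.15 ± 0.10 (adjusted p = 0.62). The call against PBS held without each library in turn, with a highest adjusted p of 0.0018. The call against CBE was lost when either day 40 CBE sample was left out, or CBE+GZ-667161 replicate 2, 3 or 4, at adjusted p up to 0.085.

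Slc1a2, the gene of GLT-1, which carries most glutamate uptake in the forebrain (chromosome 2, 102658659 to 102790784), is its sister gene. Its CPM were 1961, 2031, 2040.2 and 1811 in CBE+GZ-667161 replicates 2 to 5, 1776 and 1814 in day 40 CBE samples, 1877 and 1536 in day 34 CBE samples, and 2201, 1821, 2056 and 1964 in PBS replicates 2 to 5. The groups overlapped, with the lowest value in a day 34 CBE sample. The log2 fold change of CBE against PBS was -0.20 ± 0.10 (edgeR adjusted p = 0.21; 95% interval -0.40 to 0.0034). For CBE+GZ-667161 against CBE it was 0.16 ± 0.10 (adjusted p = 0.41), and against PBS -0.04 ± 0.10 (adjusted p = 0.94). No call was made in any of the 3 comparisons.

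The log2 ratio of Slc1a2 to Slc1a3 counts within a library does not depend on the scaling of libraries, although its absolute value depends on how each transcript is tagged. It averaged 2.57 ± 0.22 in CBE+GZ-667161, 1.88 ± 0.14 in CBE and 2.74 ± 0.13 in PBS (SD, n = 4 each). No CBE sample overlapped a sample of the other groups. CBE minus PBS was -0.87, and CBE+GZ-667161 minus CBE was 0.69, each with p = 0.0286 in a two-sided exact permutation test, the smallest p that 4 against 4 samples allow. Adjusted over the 9 ratio tests made here, both came to 0.129. CBE+GZ-667161 minus PBS was -0.18 (exact permutation p = 0.257, adjusted 0.289).

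**Figure D2:**
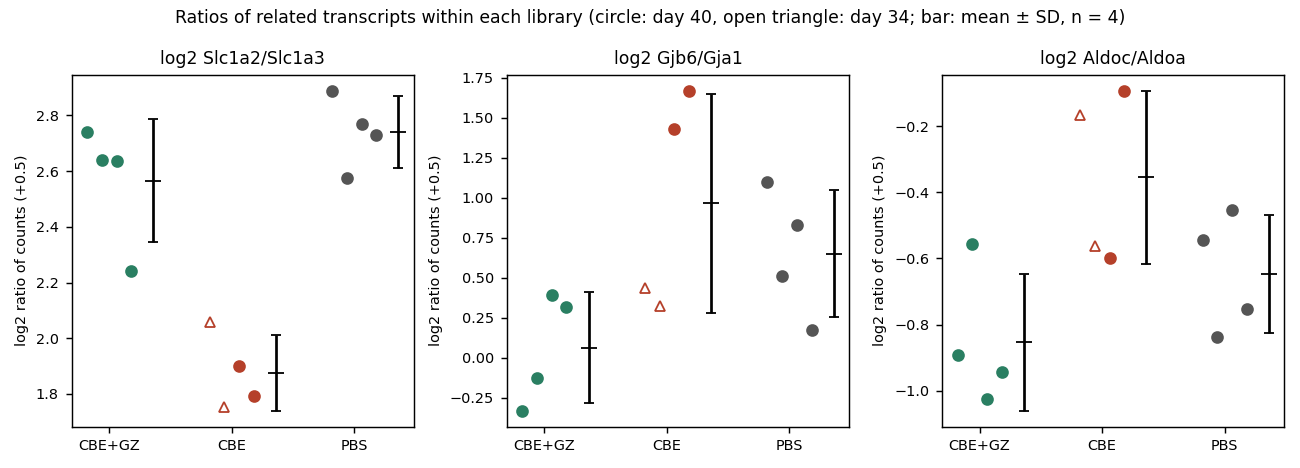
Log2 ratios of counts (0.5 added to each) of Slc1a2 to Slc1a3 (left), Gjb6 to Gja1 (middle) and Aldoc to Aldoa (right) in each library, grouped as CBE+GZ-667161, CBE and PBS, with circles for day 40, open triangles for day 34 and bars for mean ± SD. In the left panel the 4 CBE samples average 1.88 and lie below all samples of the other groups, and in the other panels the groups overlap.

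Aqp4 encodes the main water channel of the brain, placed in astrocyte endfeet and in ependyma. Its CPM were 55.9, 77.3, 52.1 and 81.5 in CBE+GZ-667161 replicates 2 to 5, 50.4 and 70.9 in day 40 CBE samples, 94.3 and 126 in day 34 CBE samples, and 44.4, 41.7, 42.7 and 36.8 in PBS replicates 2 to 5. Every PBS sample was below every other sample, and the highest values were the day 34 CBE samples. Aqp4 rose in CBE against PBS by 1.03 ± 0.23 on the log2 scale, a 2.05-fold difference (edgeR adjusted p = 0.0064), and without each library in turn the highest adjusted p was 0.021. CBE+GZ-667161 against CBE gave -0.35 ± 0.22 (adjusted p = 0.46). Between CBE+GZ-667161 and PBS the samples did not overlap, as for 6.65% of all genes in that direction, but the log2 fold change of 0.68 ± 0.22 did not pass (adjusted p = 0.13). It passed when the CBE samples were left out of the fit (0.69, adjusted p = 0.032), 1 of 11 settings that kept all libraries or split them by Xist, over which the adjusted p ran from 0.032 to 0.95.

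Gjb6 and Gja1 encode the 2 connexins through which astrocytes are coupled to each other. Gjb6 (chromosome 14, 57123303 to 57133611) had 54.3, 54.1, 59.9 and 86.0 CPM in CBE+GZ-667161 replicates 2 to 5, 138 and 147 CPM in day 40 CBE samples, 101 and 85.5 CPM in day 34 CBE samples, and 97.9, 65.1, 76.7 and 66.9 CPM in PBS replicates 2 to 5. The day 40 CBE samples stood highest, and the day 34 CBE samples lay next to the highest samples of the other groups. Gjb6 rose in CBE against PBS by 0.63 ± 0.19 on the log2 scale (edgeR adjusted p = 0.043) and was lower in CBE+GZ-667161 than in CBE by -0.91 ± 0.19 (adjusted p = 0.032). CBE+GZ-667161 against PBS gave -0.28 ± 0.19 (adjusted p = 0.62). The rise was not called without PBS replicate 3, 4 or 5 or CBE replicate 4 or 6 (adjusted p up to 0.15), and the difference from CBE was lost in 5 of the 12 fits that left out a library (adjusted p up to 0.12).

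Gja1 (chromosome 10, 56377330 to 56402513) had 68.4, 59.1, 45.6 and 69.0 CPM in CBE+GZ-667161 replicates 2 to 5, 51.1 and 46.0 CPM in day 40 CBE samples, 74.9 and 68.3 CPM in day 34 CBE samples, and 45.8, 45.7, 43.1 and 59.4 CPM in PBS replicates 2 to 5. All groups overlapped, and the day 34 CBE samples were above the day 40 ones, the opposite order to Gjb6. The log2 fold changes were 0.29 ± 0.18 for CBE against PBS (edgeR adjusted p = 0.35), 0.02 ± 0.18 for CBE+GZ-667161 against CBE (adjusted p = 0.97) and 0.31 ± 0.18 for CBE+GZ-667161 against PBS (adjusted p = 0.51). The log2 ratio of Gjb6 to Gja1 averaged 0.06 ± 0.35 in CBE+GZ-667161, 0.96 ± 0.68 in CBE and 0.65 ± 0.40 in PBS. None of its 3 differences passed, and the one nearest to passing, CBE+GZ-667161 minus CBE at -0.90, had a two-sided exact permutation p of 0.0571 (adjusted 0.171).

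**Figure D3:**
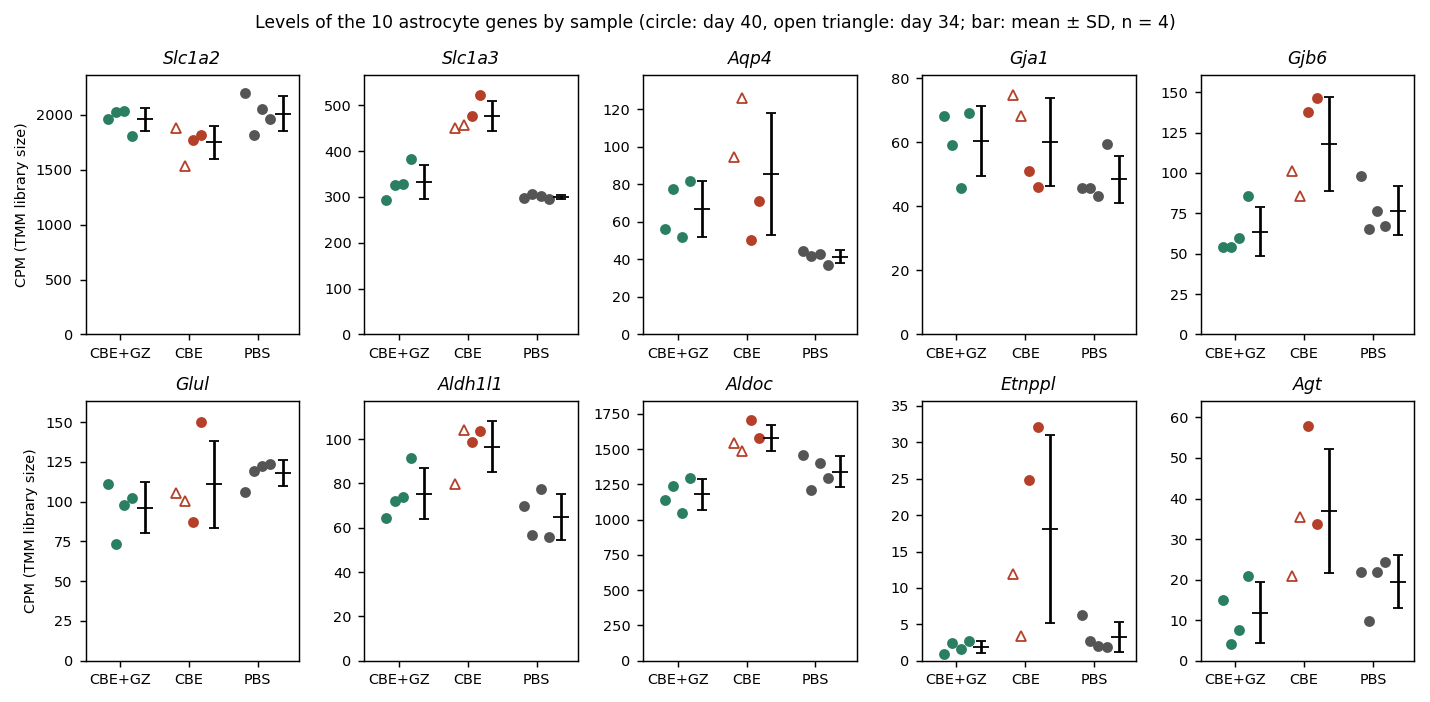
CPM of each of the 10 genes by sample in CBE+GZ-667161, CBE and PBS, with circles for day 40, open triangles for day 34 and black bars for mean ± SD (n = 4 each); every vertical axis starts at 0. Slc1a3 is highest in the 4 CBE samples (451 to 523 CPM), Aqp4 lowest in the 4 PBS samples, and the day 34 and day 40 CBE samples do not overlap for 6 genes (Slc1a3, Aqp4, Gja1, Gjb6, Aldoc and Etnppl), as for 48.1% of all genes.

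Etnppl, whose enzyme breaks down phosphoethanolamine (chromosome 3, 130617448 to 130637521), showed the largest fold changes of the 10 in both comparisons with a call, from low counts. It had 4, 11, 8 and 6 counts in CBE+GZ-667161 replicates 2 to 5, 71 and 97 counts in day 40 CBE samples, 22 and 6 counts in day 34 CBE samples, and 24, 13, 5 and 12 counts in PBS replicates 2 to 5. In CPM these were 0.909, 2.38, 1.67 and 2.67 with GZ-667161, 24.9 and 32.1 in day 40 CBE, 11.9 and 3.33 in day 34 CBE, and 6.35, 2.77, 2.09 and 1.85 in PBS. The day 40 CBE samples were far above all others, and 1 day 34 CBE sample lay within the PBS range. Etnppl rose in CBE against PBS by 2.52 ± 0.53 on the log2 scale, or 5.72-fold (edgeR adjusted p = 0.0050), a call that held without each library in turn (highest adjusted p 0.030). In CBE+GZ-667161 against CBE the log2 fold change was -3.32 ± 0.58 (adjusted p = 0.014), with no overlap of samples, and the call was lost without CBE replicate 4, CBE replicate 6 or CBE+GZ-667161 replicate 4 (adjusted p up to 0.071). Against PBS it was -0.80 ± 0.63 (adjusted p = 0.69).

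Agt encodes angiotensinogen, the precursor of the angiotensin peptides, which in the brain is made mainly by astrocytes (chromosome 8, 124556534 to 124569706). Its CPM were 14.995, 4.12, 7.53 and 20.9 in CBE+GZ-667161 replicates 2 to 5, 57.8 and 33.8 in day 40 CBE samples, 21.0 and 35.5 in day 34 CBE samples, and 22.0, 9.79, 21.8 and 24.3 in PBS replicates 2 to 5. All CBE+GZ-667161 samples were below all CBE samples, the nearest of them by a small margin (20.9 and 21.0 CPM), and both overlapped PBS. CBE+GZ-667161 was lower than CBE by a log2 fold change of -1.73 ± 0.41 (edgeR adjusted p = 0.048), a call lost in 8 of the 12 fits that left out a library (adjusted p up to 0.16). CBE against PBS gave 0.95 ± 0.39 (adjusted p = 0.13) and CBE+GZ-667161 against PBS -0.78 ± 0.41 (adjusted p = 0.45).

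Aldh1l1 encodes a folate enzyme that is widely used as an astrocyte marker (chromosome 6, 90486427 to 90600203). It had 64.5, 72.1, 73.7 and 91.3 CPM in CBE+GZ-667161 replicates 2 to 5, 98.7 and 104 CPM in day 40 CBE samples, 79.8 and 104 CPM in day 34 CBE samples, and 69.6, 56.8, 77.5 and 55.7 CPM in PBS replicates 2 to 5. All CBE samples were above all PBS samples, and CBE+GZ-667161 overlapped both. Aldh1l1 rose in CBE against PBS by 0.58 ± 0.15 on the log2 scale (edgeR adjusted p = 0.015), a call lost without PBS replicate 5 (adjusted p = 0.051). CBE+GZ-667161 against CBE gave -0.36 ± 0.14 (adjusted p = 0.22), and against PBS 0.22 ± 0.14 (adjusted p = 0.60).

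Aldoc, the brain aldolase of glycolysis, which in the cerebellum also marks zones of Purkinje cells (chromosome 11, 78322968 to 78327781), averaged 1179 ± 110.3 CPM in CBE+GZ-667161, 1579 ± 92.4 CPM in CBE and 1341 ± 110.6 CPM in PBS (SD, n = 4 each). The samples ran from 1046 to 1296 CPM with GZ-667161, from 1489 to 1705 CPM in CBE and from 1209 to 1456 CPM in PBS. Every CBE sample was above every sample of the other groups. Aldoc was lower in CBE+GZ-667161 than in CBE by a log2 fold change of -0.42 ± 0.10 (edgeR adjusted p = 0.046), a call lost in 10 of the 12 fits that left out a library (adjusted p up to 0.13). CBE against PBS gave 0.24 ± 0.10 (adjusted p = 0.15) and CBE+GZ-667161 against PBS -0.19 ± 0.10 (adjusted p = 0.46). The log2 ratio of Aldoc to its ubiquitous relative Aldoa averaged -0.85 ± 0.21 in CBE+GZ-667161, -0.35 ± 0.26 in CBE and -0.65 ± 0.18 in PBS, and none of the 3 differences passed (two-sided exact permutation p = 0.0857 to 0.171, adjusted 0.193 to 0.220).

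Glul (chromosome 1, 153899944 to 153909723) was called in no comparison. Its CPM ran from 73.4 to 111 in CBE+GZ-667161, from 87.5 to 150.3 in CBE and from 106 to 124 in PBS. The highest and the next to lowest of the 12 values were both CBE samples, and the groups overlapped. The log2 fold changes were -0.08 ± 0.16 for CBE against PBS (edgeR adjusted p = 0.79; 95% interval -0.42 to 0.26), -0.21 ± 0.16 for CBE+GZ-667161 against CBE (adjusted p = 0.55) and -0.30 ± 0.16 for CBE+GZ-667161 against PBS (adjusted p = 0.47).

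Spread between samples of a group also differed among the 10 genes. The coefficient of variation in CBE samples ran from 5.85% for Aldoc and 6.93% for Slc1a3 to 71.5% for Etnppl, and in PBS samples from 1.51% for Slc1a3 to 64.1% for Etnppl. For Aqp4 it was 22.3% in CBE+GZ-667161, 38.1% in CBE and 7.96% in PBS. Summed over the 10 genes, the level ran from 3738 to 3928 CPM in CBE+GZ-667161, from 3985 to 4482 CPM in CBE and from 3662 to 4330 CPM in PBS.

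**Figure D4:**
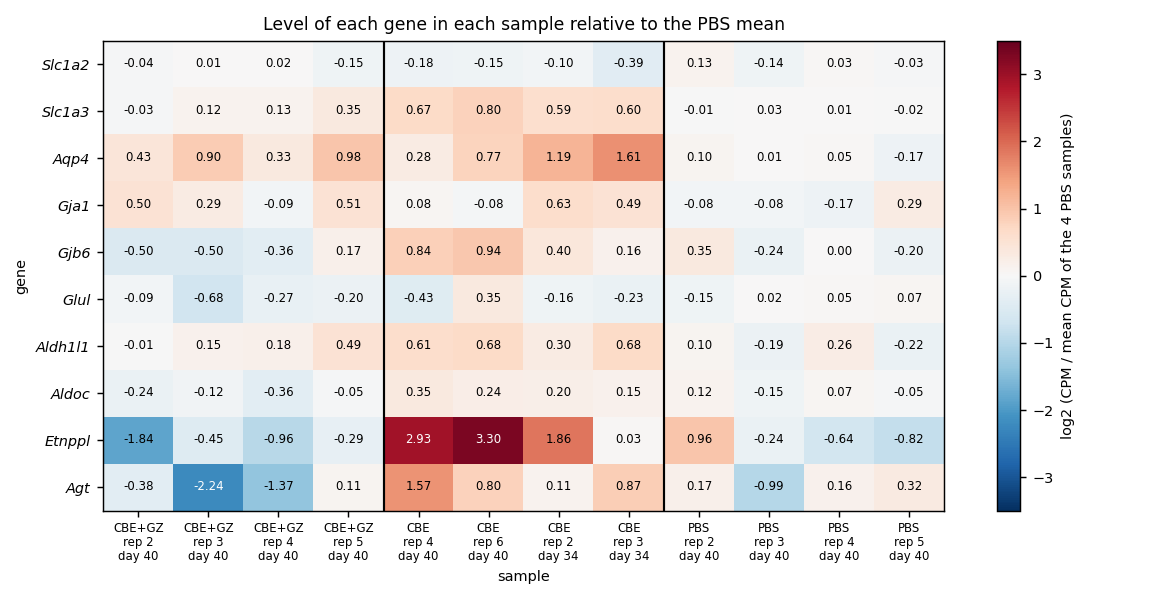
Log2 of each gene's CPM over its mean in the 4 PBS samples, for every sample (columns, CBE+GZ-667161, CBE and PBS from left to right, with replicate and day) and gene (rows). The 2 day 40 CBE samples reach 2.93 and 3.30 for Etnppl, and the 2 day 34 CBE samples reach 1.19 and 1.61 for Aqp4.

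The CBE group holds 2 ages, so its day 40 and day 34 samples were compared directly. None of the 10 genes was called by edgeR in a fit of 13372 genes, in which 0.613% of genes were called, limma-voom also called 0, and DESeq2 called 1, Aqp4 (-0.87, adjusted p = 0.044, against 0.044 to 0.37 over the 8 alternative settings). Of the 10, 4 passed an unadjusted p under 0.05, as did 2021 of all 13372 genes in that fit. Day 40 against day 34 gave log2 fold changes of -0.88 ± 0.24 for Aqp4 (edgeR adjusted p = 0.10), -0.59 ± 0.22 for Gja1 (0.22), 0.58 ± 0.23 for Gjb6 (0.26) and 1.87 ± 0.57 for Etnppl (0.14). Of the 10, 6 had samples that did not overlap between the ages, 4 higher and 2 lower at day 40, which with 2 samples each was so for 48.1% of all genes. There is no PBS or CBE+GZ-667161 sample of day 34 among these 12, so age and CBE cannot be told apart in the day 34 samples.

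With the day 34 samples left out, CBE against PBS called 4 of the 10 higher, against 13.2% of all genes in either direction: Etnppl (log2 fold change 3.13, edgeR adjusted p = 0.00026), Slc1a3 (0.73, adjusted p = 0.0013), Gjb6 (0.89, adjusted p = 0.0088) and Aldh1l1 (0.64, adjusted p = 0.022). Aqp4 was at 0.55 (adjusted p = 0.094). With the day 40 CBE samples left out instead, 2 were called, against 5.51% of all genes: Aqp4 (1.43, adjusted p = 0.00025) and Slc1a3 (0.61, adjusted p = 0.0054). Slc1a3 was thus called with either pair of CBE samples, Aqp4 with the day 34 pair, and Etnppl, Gjb6 and Aldh1l1 with the day 40 pair. With the day 34 pair the log2 fold changes were 1.24 for Etnppl (edgeR adjusted p = 0.32), 0.31 for Gjb6 (0.51) and 0.53 for Aldh1l1 (0.14). For Aldh1l1 the direct test of day 40 against day 34 gave 0.12 ± 0.21 (adjusted p = 0.84).

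CBE+GZ-667161 against CBE, within day 40, called 5 of the 10 lower, against 5.09% of all genes in either direction. They were Etnppl (-3.93, edgeR adjusted p = 0.00043), Gjb6 (-1.17, adjusted p = 0.0057), Slc1a3 (-0.59, adjusted p = 0.017), Agt (-2.02, adjusted p = 0.024) and Aldoc (-0.48, adjusted p = 0.037). Aqp4 changed sign there, with 0.13 (adjusted p = 0.76). Against the day 34 CBE samples none of the 10 was called, and of all genes 0.0147% were. The same 5 genes had log2 fold changes of -2.05 (Etnppl), -0.59 (Gjb6), -0.47 (Slc1a3), -1.35 (Agt) and -0.38 (Aldoc) there, with adjusted p of 0.17 to 0.33.

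Among the 7 libraries with Xist under 1 CPM (1 of CBE+GZ-667161, 4 of CBE and 2 of PBS), a split added after the data were seen, CBE against PBS called 1 of the 10, Slc1a3 (log2 fold change 0.66, edgeR adjusted p = 0.018), against 4.10% of all genes. The other genes called in the full comparison had 0.97 for Aqp4 (adjusted p = 0.11), 0.54 for Gjb6 (0.28), 0.61 for Aldh1l1 (0.088) and 2.05 for Etnppl (0.13), and Agt had 1.24 (0.11). CBE+GZ-667161 against CBE called none of the 10 and 0.118% of all genes there, with 1 CBE+GZ-667161 library assumed to vary like the other groups. Its log2 fold changes were -3.44 for Etnppl, -2.30 for Agt, -0.98 for Gjb6, -0.59 for Aldoc and -0.53 for Slc1a3 (adjusted p 0.18 to 0.33). CBE+GZ-667161 against PBS called none of the 10 among libraries with Xist under 1 CPM, where 0.939% of all genes were called, and none among those with 1 CPM or more, where 1.09% were.

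Gfap and Vim, intermediate filament genes of reactive astrocytes, give the scale of astrocyte reactivity in the same libraries. Gfap averaged 365 ± 157 CPM in CBE+GZ-667161, 791 ± 209 CPM in CBE and 81.0 ± 22.1 CPM in PBS, and Vim averaged 219.8 ± 88.2 CPM in CBE+GZ-667161, 539.9 ± 70.2 CPM in CBE and 74.5 ± 15.1 CPM in PBS. Both were higher in CBE+GZ-667161 than in PBS, by 2.16 ± 0.26 and 1.55 ± 0.21 on the log2 scale (edgeR adjusted p = 5.4e-05 and 0.00019), and lower than in CBE by -1.12 ± 0.25 and -1.31 ± 0.21 (adjusted p = 0.040 and 0.010). The Gfap call against CBE was lost in 9 of the 12 fits that left out a library (adjusted p up to 0.13). That of Vim was lost in 1 (adjusted p 0.062). CBE+GZ-667161 replicate 5 had 600 CPM of Gfap, close to the 605 CPM of CBE replicate 4. The 10 reactive astrocyte genes summed to 685 to 1500.0 CPM in CBE+GZ-667161, 2309 to 2747 CPM in CBE and 196 to 269 CPM in PBS.

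Beyond the 10, 73 other genes of astrocyte transport, metabolism and identity were tested in lists. In CBE against PBS 8 rose, 6 fell and 59 did not pass, with a median log2 fold change of -0.01. Within day 40 there were 20 calls, 8 higher and 12 lower. Among ion-handling genes 1 of 8 rose, Fxyd1, which encodes a regulator of the sodium pump, by 1.39 ± 0.15 (edgeR adjusted p = 1.1e-05). Of 8 genes of Aqp4 anchoring and endfeet 2 rose and 1 fell: Mlc1 by 0.64 ± 0.11 (adjusted p = 0.00098) and Hepacam by 0.58 ± 0.13 (adjusted p = 0.0059), whose products form a membrane complex at astrocyte junctions, and Utrn, which encodes utrophin, with -1.17 ± 0.36 (adjusted p = 0.045). The Utrn call was lost in 6 of the 12 fits that left out a library (adjusted p up to 0.16). None of 11 other genes of glutamate, glutamine and GABA handling passed, with a list median of -0.09. Slc1a1, the neuronal relative of the glutamate transporters, had -0.06 ± 0.16 (adjusted p = 0.87).

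Of 13 genes of astrocyte energy, serine and lipid metabolism, Shmt1, a folate enzyme of serine metabolism, rose by 1.69 ± 0.45 (edgeR adjusted p = 0.023), Cyp4f14, a fatty acid hydroxylase, rose by 0.92 ± 0.21 (adjusted p = 0.0093), and Acsl6, an acyl-CoA synthetase, had -0.36 ± 0.11 (adjusted p = 0.042). Of 20 identity and surface genes 2 rose, Sdc4 (a heparan sulphate proteoglycan; 1.10 ± 0.23, adjusted p = 0.0048) and Sox9 (a transcription factor of the astrocyte lineage; 0.50 ± 0.14, adjusted p = 0.028), and 3 fell. These were Mfge8, a bridging protein for phagocytosis (-0.996 ± 0.200, adjusted p = 0.0034), and Slco1c1 and Dio2, a thyroid hormone transporter and deiodinase (-0.86 and -0.79, adjusted p = 0.049 and 0.037), the last 2 named after their values were seen. Of 6 other connexins Gjb2 rose by 0.79 ± 0.21 (adjusted p = 0.023). The Acsl6 call was lost in 10 of the 12 fits that left out a library (adjusted p up to 0.12). Those of Shmt1, Sox9 and Gjb2 were each lost in 4 (adjusted p up to 0.072, 0.076 and 0.082). Aldoa was at -0.03 ± 0.13 (adjusted p = 0.91). Of the angiotensin system 3 genes could be tested and none passed, with Atp6ap2, the renin receptor gene, at -0.01 ± 0.16 (adjusted p = 0.98).

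CBE+GZ-667161 against CBE gave 0 higher and 3 lower among the 73, with a median of -0.04. Within day 40 there were 10 calls, 6 higher and 4 lower. Hepacam was lower by -0.79 ± 0.13 (edgeR adjusted p = 0.010), Fxyd1 by -0.71 ± 0.15 (adjusted p = 0.032) and Slc25a18, a mitochondrial glutamate carrier gene, by -0.58 ± 0.14 (adjusted p = 0.0498). These 3 calls were lost in 1, 5 and 11 of the 12 fits that left out a library (adjusted p up to 0.062, 0.12 and 0.14). In lists with no passing gene, Ndrg2 (-0.07 ± 0.10), Slc2a1 (-0.49 ± 0.23), Slc1a1 (-0.30 ± 0.16), Gjc3 (0.54 ± 0.20), Atp6ap2 (-0.13 ± 0.16) and Aldoa (0.06 ± 0.13) were at adjusted p of 0.20 to 0.87. Slc2a1, the glucose transporter gene, was called lower within day 40 (-0.88, adjusted p = 0.022) and was at 0.051 against the day 34 CBE samples (adjusted p = 0.95). Against PBS 2 of the 73 were higher with CBE+GZ-667161, Fxyd1 by 0.68 ± 0.15 (adjusted p = 0.016) and Agrn, the agrin gene, by 0.57 ± 0.13 (adjusted p = 0.017). The 2 calls were lost in 2 and 4 of the 12 fits that left out a library (adjusted p up to 0.069 and 0.071). Between the CBE ages 1 companion gene was called higher and 2 lower at day 40, among them Htra1 (0.83) and Mfge8 (-1.01, edgeR adjusted p = 0.015 and 0.0096). Mfge8 was called lower in CBE than in PBS in all 12 alternative settings, among them the fits with either pair of CBE samples. Its log2 fold change ran from -1.57 to -0.56 there, with adjusted p up to 0.046 by the test of each setting.

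**Figure D5:**
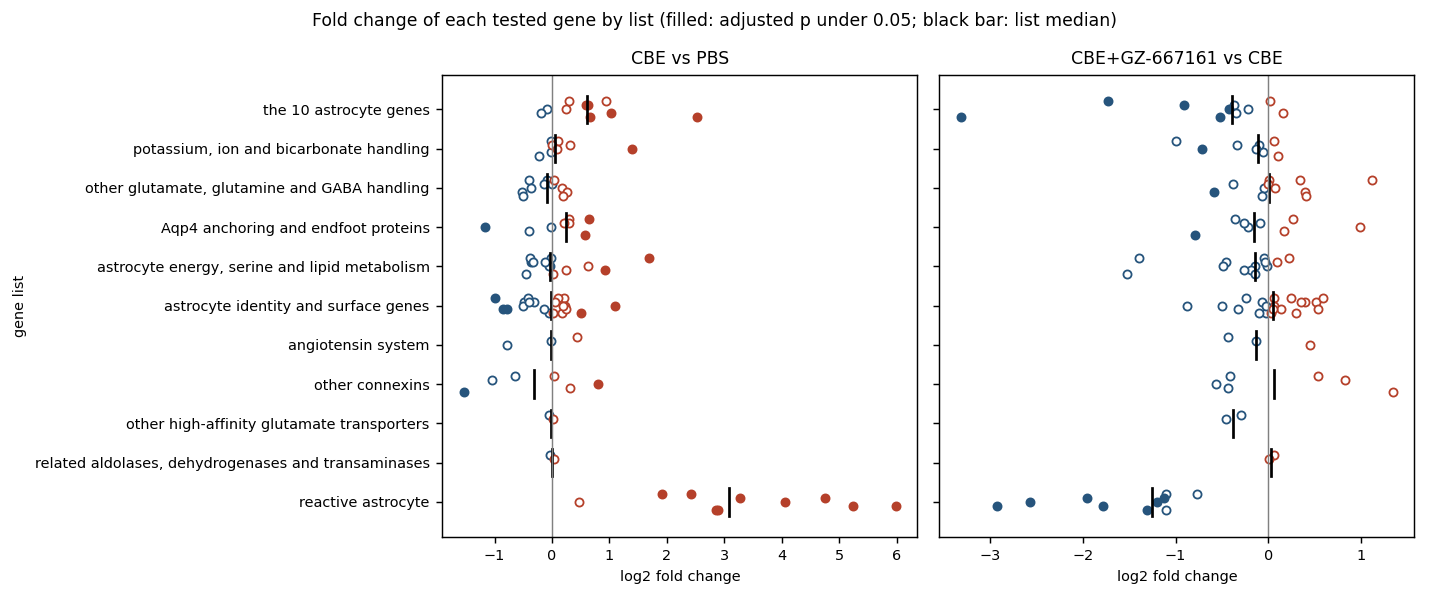
Log2 fold change of every tested gene (points) in the 10 astrocyte genes, the companion lists and the reactive astrocyte list (rows), for CBE against PBS (left) and CBE+GZ-667161 against CBE (right), with filled points for an adjusted p under 0.05 and black bars for list medians; the horizontal scales differ. The 10 astrocyte genes have medians of 0.61 and -0.39, and the reactive list 3.08 and -1.25.

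Markers of other cell types moved with the same groups, and their part in the levels of the 10 genes was not tested. Of 12 microglia markers 10 were higher in CBE than in PBS and 10 in CBE+GZ-667161 than in PBS, with sums of 2522 to 4504 CPM in CBE+GZ-667161, 4231 to 6159 CPM in CBE and 1091 to 1215 CPM in PBS. Of 12 neuron markers 7 were lower in CBE than in PBS, with sums of 5920 to 7077 CPM in CBE+GZ-667161, 5293 to 6257 CPM in CBE and 7390 to 7491 CPM in PBS. None of 8 oligodendrocyte markers was called, with sums of 3572 to 8227 CPM in CBE+GZ-667161, 2928 to 5998 CPM in CBE and 5709 to 7066 CPM in PBS. For choroid plexus and ependyma, where Aqp4 is also made, 1 of 6 tested markers (Foxj1) was higher in CBE, and the sums were 27.5 to 373 CPM in CBE+GZ-667161, 78.4 to 549 CPM in CBE and 29.0 to 135 CPM in PBS. Kcne2 and Folr1 had too few counts to be tested. Summed over the samples of a group, Kcne2 had 6 counts in CBE+GZ-667161, 0 in CBE and 4 in PBS, and Folr1 had 26, 35 and 15. Of 9 endothelial and mural markers 2 were lower in CBE (Flt1 and Rgs5), of 5 erythroid markers 1 (Hbb-bt), and none of 6 oligodendrocyte precursor markers; these single markers are named after their values were seen.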

How the data were processed

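Libraries of 12 whole-brain RNA samples were made by bulk MARS-seq, per the labels. The authors deposited unnormalized whole-number counts for each gene symbol. Per the submitters' processing notes the authors used cutadapt, HISAT 0.1.6, HTSeq and DESeq2 with mm10. The annotation, the use of strand and the handling of molecular identifiers were not given in the sources used here. A second deposited file holds normalized signal, each value being the count times 1 constant of its library, and served only to check this. The authors' deposited table holds log2 fold changes and p-values, with the first group named over the second.

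Of 16505 entries, 23 carried a date in place of a symbol (0.266% to 0.347% of a library's counts) and were left out. The filter on low counts was filterByExpr (minimum count 10, minimum total 15). Samples were grouped by treatment label; TMM scaling and edgeR 4.0.16 (glmQLFit, glmQLFTest) were applied in 1 fit of 3 groups, or 4 with CBE split by age, in R 4.3.3. The biological coefficient of variation was 0.193. P-values were adjusted by Benjamini and Hochberg over all genes tested, with a threshold of 0.05. CPM are on TMM library size, and a small library gives genes of few counts, such as Etnppl, a wide error. Ratios (0.5 added to counts) used exact permutation tests over samples.

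The members and lists were chosen with earlier results of these data known. All 10 members were named in every comparison, with up to 3 passing genes of smallest p from each companion list, or its gene of highest mean expression where none passed, and Gfap and Vim; some genes that the rule takes are not reported here. Slc16a1, Agtr2, Ren1 and Lnpep were not analysed here, and Agtr1a, Enpep, Gjd2 and Aldh1l2 had too few counts in the fit of 3 groups. Alternatives were other scalings, no filter, DESeq2 1.42.0, limma-voom (limma 3.58.1), 2 groups in the fit, age, Xist, a replicate block and leaving out each library; the Xist splits were added after seeing the data. The fits were tested on simulated data. Positions are from GENCODE M21 (mm10) and promoter windows from RefSeq (GRCm38.p6). No annotated gene covers the 3′ end of a member.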

Additional observations from a re-analysis of the deposited data

Results flagged for a closer look

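Gja1 in PBS replicate 5 stood apart from the other PBS samples, at 59.4 CPM, against 45.8, 45.7 and 43.1 CPM in PBS replicates 2, 3 and 4. Its gap to the next sample, as a share of the range of the 4 samples, exceeded Dixon's critical value at the 95% level. Of 39 sets of 4 samples looked at, this was the 1 found, and chance alone flags about 1 set in 20. Gja1 was called in no comparison, and without each library in turn its log2 fold change of CBE against PBS ran from 0.16 to 0.41 (edgeR adjusted p 0.22 to 0.64).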

How the results depend on the processing

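Counts of the 10 genes called in CBE against PBS were 5 and, under other settings, 2 with the replicate block, 2 without the day 40 CBE samples, 1 among libraries with Xist under 1 CPM and 3 to 5 without each library in turn. In CBE+GZ-667161 against CBE the count was 5, and it was 1 with only the 2 groups in the fit, 1 with the replicate block, 0 with Xist as covariate, 0 without the day 40 CBE samples, 0 among libraries with Xist under 1 CPM and 0 to 5 without each library. CBE+GZ-667161 against PBS gave 1 with only the 2 groups in the fit, and day 40 against day 34 CBE gave 1 by DESeq2. The cause of these differences was not tested. Samples with the same replicate number did not deviate together (correlations of -0.08 to 0.24, 1 of 10 pairs over 0.1), so the replicate block tests no known pairing. No scaling moved the median of all genes by 0.1 on the log2 scale.

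Calls over all genes in CBE+GZ-667161 against CBE were 56 higher and 105 lower, and in all 489 by DESeq2, 31 with 2 groups in the fit, 82 with the replicate block, 67 with Xist as covariate, 692 within day 40, 2 without the day 40 CBE samples, 16 among libraries with Xist under 1 CPM and 5 to 269 without each library. For CBE against PBS they were 1387, and 751 without the day 40 CBE samples and 555 among libraries with Xist under 1 CPM. For CBE+GZ-667161 against PBS they were 435, and 127 and 143 among libraries with Xist under and over 1 CPM. Between the ages they were 82, and 240 by DESeq2, 19 by limma-voom, 9 with the replicate block and 0 to 104 without each library. Companion genes called numbered 14 for CBE against PBS, and 20 within day 40, 7 with the replicate block, 9 with Xist as covariate, 4 without the day 40 CBE samples, 6 with Xist under 1 CPM and 7 to 18 without each library. They numbered 3 for CBE+GZ-667161 against CBE (0 to 10 under the alternatives, with 6 higher and 4 lower within day 40), 2 against PBS (0 to 5) and 3 between the ages (0 to 7).

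Sign changes concerned log2 fold changes that did not pass in edgeR's fit of all samples. Of these, Slc2a1 in CBE+GZ-667161 against CBE was called lower within day 40 (-0.88, edgeR adjusted p = 0.022). By total counts Ndrg2 was at 0.0014 in CBE+GZ-667161 against PBS, and by upper quartile Atp6ap2 at 0.0017 in CBE against PBS. With the replicate block, CBE against PBS gave 0.081 for Slc1a1 and 0.085 for Aldoa, CBE+GZ-667161 against CBE gave -0.18 for Gja1 and -0.068 for Aldoa, and day 40 against day 34 gave -0.0066 for Slc1a2, -0.010 for Slc1a3, -0.38 for Glul and -0.13 for Aldh1l1. With Xist as covariate Slc1a1 was at 0.17 in CBE against PBS and Gja1 at -0.29 in CBE+GZ-667161 against CBE. Within day 40, CBE against PBS gave -0.013 for Gja1, 0.0099 for Glul, 0.13 for Atp6ap2 and 0.017 for Aldoa, and CBE+GZ-667161 against CBE gave 0.13 for Aqp4. Without the day 40 CBE samples Slc1a1 was at 0.097 in CBE against PBS, and Gja1, Atp6ap2 and Slc2a1 were at -0.27, 0.016 and 0.051 in CBE+GZ-667161 against CBE. Among libraries with Xist under 1 CPM, Slc1a1 was at 0.16 in CBE against PBS, and CBE+GZ-667161 against PBS gave 0.021 for Slc1a2, -0.0045 for Gja1, 0.045 for Atp6ap2 and -0.0086 for Aldoa, and against CBE -0.38 for Gja1, 0.060 for Atp6ap2 and -0.039 for Gjc3.

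Without each library in turn, signs changed for Glul (-0.27 to 0.025), Atp6ap2 (-0.066 to 0.084), Slc1a1 (-0.14 to 0.063) and Aldoa (-0.16 to 0.054) in CBE against PBS. In CBE+GZ-667161 against CBE they changed for Gja1 (-0.098 to 0.14), Atp6ap2 (-0.22 to 0.0082) and Aldoa (-0.025 to 0.19), and against PBS for Slc1a2 (-0.064 to 0.031), Ndrg2 (-0.061 to 0.049), Gjc3 (-0.31 to 0.066) and Aldoa (-0.061 to 0.10). Between the ages they changed for Slc1a2 (-0.064 to 0.23), Glul (-0.24 to 0.55) and Aldh1l1 (-0.034 to 0.34). The 3 ratios kept their direction without each library, with 1 added in place of 0.5 and within day 40. With so few samples their p-values say nothing about stability.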

Other observations

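Genes of brain regions were looked at because Slc1a3 and Aldoc are also abundant in the cerebellum. The 7 measured genes of cerebellum and Bergmann glia summed to 44.6 to 73.2 CPM in CBE+GZ-667161, 38.2 to 74.1 CPM in CBE and 51.1 to 73.5 CPM in PBS, and the 8 forebrain genes summed to 792 to 1009 CPM in CBE+GZ-667161, 709 to 894 CPM in CBE and 714 to 1089 CPM in PBS. The groups overlapped for both lists. In edgeR's quasi-likelihood test none of the 4 tested cerebellar genes and none of the 8 forebrain genes passed in CBE against PBS or in CBE+GZ-667161 against CBE, with list medians of -0.38 and -0.32 for CBE against PBS and 0.15 and 0.38 for CBE+GZ-667161 against CBE.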
